A study of Mus musculus with 6 samples.

Results

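The genes studied, 9 in number, encode proteins that sit next to the T cell receptor. They were followed in regulatory T cells labelled Bcl11b KO or WT. In read counts 1 of the 9 was called between KO and WT, where 12.9% of all genes were called: Themis was higher in the libraries labelled KO. In a second, normalized table it had the same direction and no call, where 0.00819% of all genes were called. The authors' deposited test of the same normalized data lists it as higher in KO, with an adjusted p of 0.00642. The members were chosen by gene symbol, as coreceptor, kinases, adaptors and tuning molecules of the receptor, and all 9 were present among 24424 genes of a table of read counts and among 23393 genes of the normalized table. They are Cd4, Lck, Fyn, Lat, Lcp2, Plcg1, Prkcq, Themis and Cd5.

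RNA had been sequenced from regulatory T cells sorted from spleen and peripheral lymph nodes of mice, in 3 groups of 2 libraries. The KO EAE group and the KO group share the strain label Bcl11bF/WT Foxp3YFP-Cre +/-, and differ in condition. The first is labelled EAE, the usual short form of experimental autoimmune encephalomyelitis, in which T cells attack the nervous system, and the second is labelled steady state. The WT group is labelled Bcl11bF/F, with no Cre, and was also taken at steady state. All 6 libraries therefore carry at least 1 floxed Bcl11b allele, while the YFP-Cre fusion driven by the Foxp3 gene is named in the labels of the KO and KO EAE groups alone, and the labelled KO strain names 1 wild-type Bcl11b allele. The sorting gate, the ages of the mice and the day of EAE are not given in the labels, and nothing in them states whether the replicates are different mice, so the p-values measure only the spread between these libraries, which may be technical. No WT library in EAE was analysed here. KO and KO EAE are used below as the names the labels give.

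The T cell receptor recognises peptide on MHC molecules, and its CD3 chains carry the motifs that start the signal. The coreceptor CD4 brings the kinase Lck to the receptor, Lck phosphorylates the CD3 chains and activates ZAP70, and ZAP70 phosphorylates the scaffold LAT, which assembles SLP-76 (encoded by Lcp2) and phospholipase C gamma (Plcg1) into a complex that releases calcium and diacylglycerol. Themis and CD5 set how strongly this chain responds, and regulatory T cells depend on it for their selection in the thymus and for their upkeep in the periphery.

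Promoter stretches of Themis and Cd5 are shown because both genes tune the receptor signal and the data separated them, with Themis called and Cd5 not. Each is the 250 bases before a start of transcription, from RefSeq (GRCm38.p6), written 5′ to 3′ on the strand of the gene. Capitals mark E-boxes, CANNTG on either strand, the core motif of the E proteins and other helix-loop-helix factors.
Themis, chr10:28668110-28668359, plus strand: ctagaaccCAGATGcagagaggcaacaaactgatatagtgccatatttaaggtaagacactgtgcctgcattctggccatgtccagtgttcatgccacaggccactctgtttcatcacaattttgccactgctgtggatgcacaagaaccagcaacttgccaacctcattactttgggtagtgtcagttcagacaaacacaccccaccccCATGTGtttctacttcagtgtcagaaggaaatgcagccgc
Cd5, chr19:10738975-10739224, minus strand: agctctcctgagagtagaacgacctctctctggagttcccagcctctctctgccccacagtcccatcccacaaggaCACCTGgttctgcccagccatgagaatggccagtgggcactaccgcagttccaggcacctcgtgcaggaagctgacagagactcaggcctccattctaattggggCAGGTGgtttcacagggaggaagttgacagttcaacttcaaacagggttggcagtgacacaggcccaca

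The Themis stretch, before the first of its listed starts, held 2 E-boxes, CAGATG and CATGTG, which began 242 and 40 bases before the start. The Cd5 stretch also held 2, CACCTG and CAGGTG, at 174 and 69 bases. The stretch before another listed start of Themis (28668145 to 28668394) held 1, CATGTG, at 75 bases. E-boxes were found in 66.2% of 32851 mouse promoter stretches of this length. The letters TGTGGT on either strand, the core motif of Runx factors, were in none of these Themis and Cd5 stretches and were in 14% of all 32851. Of the 9 members, 8 were matched to a promoter entry, all but Cd4. A match is a description of letters and not of binding.

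The count table held 14663542 to 16904312 reads per library, and the reads recovered from the normalized table came to 16884434 to 25335011 per library. Reads per library differed between the tables for the same labelled sample, so each table was tested on its own. The labels do not say whether both tables come from the same RNA, sequencing run or counting. Whether 1 table is an independent check of the other is therefore not known. Bcl11b, the targeted gene, had 404 and 278 CPM (reads relative to library size, after TMM scaling) in KO EAE, 371 and 370 CPM in KO and 420 and 425 CPM in WT, with no call between KO and WT (log2 change -0.19 ± 0.17, SE; edgeR quasi-likelihood test, adjusted p = 0.527). Normalized values of Bcl11b were 6746 and 5211 in KO and 10518 and 11371 in WT (log2 change -0.88 ± 0.14; limma, adjusted p = 0.0895), a difference that was called at a pseudocount of 10 (adjusted p = 0.0468) and without either WT replicate (adjusted p = 0.0351 and 0.0172). Between KO EAE and WT counts Bcl11b was not called (adjusted p = 0.313), but it was without KO EAE replicate 1 (adjusted p = 0.00536). The authors' deposited table lists Bcl11b at -0.80 (adjusted p = 7.91e-08). For the genes named from it, its mean signals equal the means of the normalized values. It therefore goes with those values and not with the counts. These are values of the whole gene, and the labels do not say which exons are floxed. Of 8 markers of T and regulatory T cells, 8 were read in every library, with summed levels of 1414 to 1537 CPM in KO EAE, 1413 to 1458 CPM in KO and 1902 to 1969 CPM in WT. That list held Foxp3, Il2ra, Ctla4, Ikzf2, Cd3d, Cd3e, Cd3g and Cd4. Markers of myeloid cells, 20 in number, summed to 1824 to 2260 CPM in KO EAE, 2028 to 2459 CPM in KO and 302 to 319 CPM in WT. The 9 markers of NK cells summed to 161 to 248, 208 to 213 and 74.6 to 87.5 CPM, and the 10 of B cells to 75.6 to 152, 87.1 to 141 and 44.6 to 48.7 CPM, in KO EAE, KO and WT. The NK list held Ncr1, Klrb1c, Klre1, Klra8, Klra4, Gzma, Prf1, Tyrobp and Eomes. Whether the reads of each came from NK cells alone was not tested. Normalized values of the myeloid markers, of which 19 of 20 were present, summed to 33952 and 29560 in KO and 8973 and 15286 in WT, and those of NK cell markers to 2629 and 1857 in KO and 985 and 1301 in WT. Sums overlapped between groups there for T and regulatory T cell markers (86696 and 84173 in KO, 91720 and 85784 in WT) and for B cell markers (1314 and 815 in KO, 721 and 1347 in WT), and limma called no marker of any list. The myeloid marker S100a8 was at 0 in 2 libraries of the count table, KO replicate 1 and WT replicate 1, and the NK receptor genes Klra8 and Klra4 were at 0 in all 6. The part of these markers in the results that follow was not tested.

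**Figure D1:**
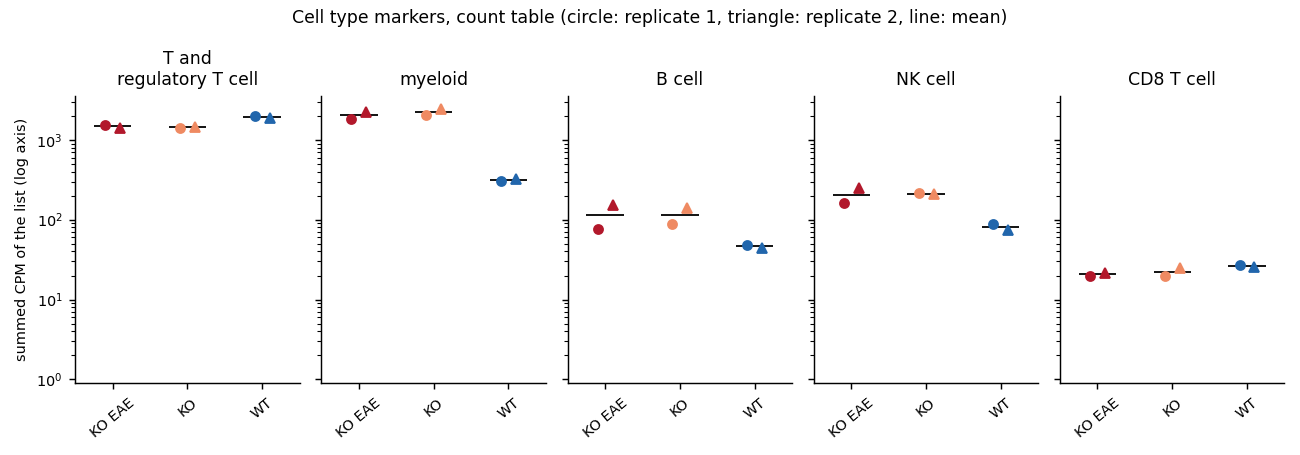
Summed level of each marker list (CPM after TMM scaling, log axis) in the KO EAE, KO and WT libraries of the count table; circles are replicate 1, triangles replicate 2 and lines means. Myeloid markers reached 1824 to 2459 CPM in the KO EAE and KO libraries and 302 to 319 CPM in WT, while the 2 CD8 T cell markers stayed between 19.8 and 27.3 CPM in all 6.

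Themis was the member called in the read counts between KO and WT libraries at steady state. Its protein binds the phosphatase SHP-1 and tunes receptor signals, and in mice thymocytes need it for positive selection. The gene (ENSMUSG00000049109.15, chromosome 10, 28668360 to 28883818, plus strand, mm10) had 192 and 218 CPM in KO libraries, against 122 and 122 CPM in WT libraries. The KO replicates lay apart by more than the WT replicates, and both KO libraries stood well above both WT libraries. The rise was 1.69-fold, a log2 change of 0.75 ± 0.08 (SE; 95% interval 0.55 to 0.96; edgeR, Benjamini-Hochberg adjustment over the 14548 genes tested, adjusted p = 0.00259). Themis was the 1 member of 9 called; of all genes tested, 12.9% were called in this comparison, 9.41% as higher and 3.46% as lower. At an unadjusted p under 0.05 there were 2 members, Themis and Prkcq, and 4128 of all genes. The call held with any 1 of the 4 libraries left out (log2 change 0.66 to 0.85, adjusted p = 0.00791 to 0.0296).

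Other cell types' markers moved in the same comparison. The median log2 change was 2.87 over 20 myeloid markers, 15 of them called higher, 2.01 over 10 B cell markers, 1 of them called higher, and 1.59 over 7 NK cell markers, 4 of them called higher. Of the 8 markers of T and regulatory T cells, 4 were called lower (median -0.23), namely Foxp3, Il2ra, Ctla4 and Ikzf2. The others, Cd3d, Cd3e, Cd3g and Cd4, were not called, with log2 changes of -0.08, -0.02, -0.06 and 0.04. In bulk samples a change in the number of cells of a type and a change of RNA per cell cannot be told apart. Measured against the CD3 chain genes Cd3d, Cd3e, Cd3g and Cd247 of the same library, Themis stood at 38.1% and 40.1% of their summed CPM in KO, against 22.1% and 22.4% in WT. Cd4 on the same scale stood at 55.3% and 57.8% in KO, against 52.9% and 52.9% in WT. The pseudogene 4930519F09Rik overlaps an exon of Themis on the opposite strand, and its own counts were 27 and 23 reads in KO and 19 and 29 in WT, against 3380 and 3201 reads of Themis in KO and 1946 and 1987 in WT.

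**Figure D2:**
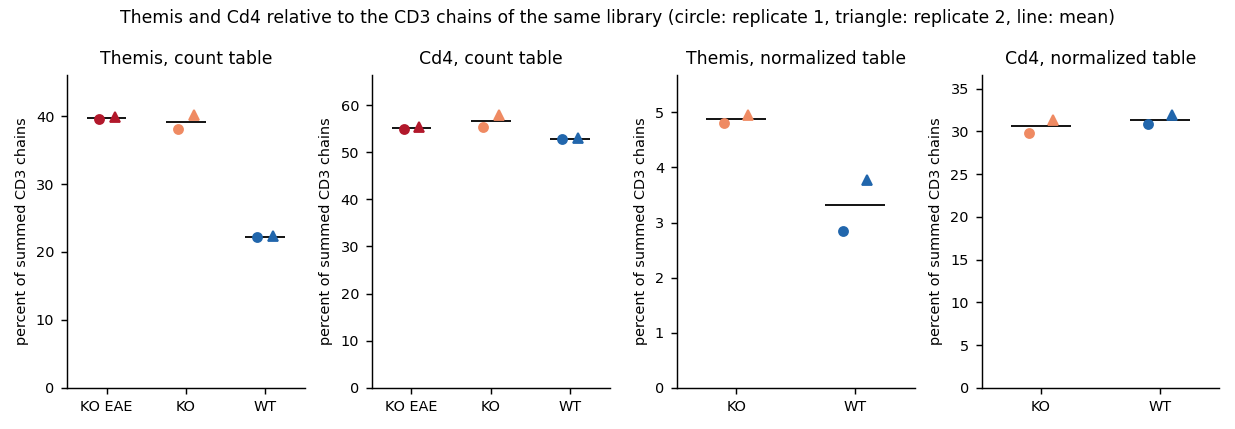
Themis and Cd4 as a percentage of the summed CD3 chain genes of the same library, in the count table (left pair of panels) and the normalized table (right pair); points are libraries and lines are means. Themis lay at 38.1% and 40.1% in KO against 22.1% and 22.4% in WT in the count table, and at 4.82% and 4.95% against 2.85% and 3.78% in the normalized table.

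The normalized table gave the same direction with no call. Themis had normalized values of 3113 and 3041 in KO, against 1752 and 2159 in WT. Here the WT replicates lay apart and the KO replicates close together, and the groups again did not overlap. The log2 change was 0.66 ± 0.15 on the log2(value + 1) scale (lower 95% limit 0.32; limma, adjustment over 12208 genes, adjusted p = 0.169), and 0.00819% of all genes were called. With WT replicate 2 left out it was 0.81 and called (adjusted p = 0.0153), and with WT replicate 1 left out it was 0.51 (adjusted p = 0.204). The authors' deposited table, which goes with these normalized values, lists Themis at a log2 fold change of 0.57 with a standard error of 0.15. For Themis the adjusted p there was 0.00642, by a different test of the same data. Relative to the CD3 chains it stood at 4.82% and 4.95% in KO, against 2.85% and 3.78% in WT. Limma called 0 of the 9 members in this table, 1 of them (Themis) had an unadjusted p under 0.05, and edgeR on the recovered reads called 0.

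**Figure D3:**
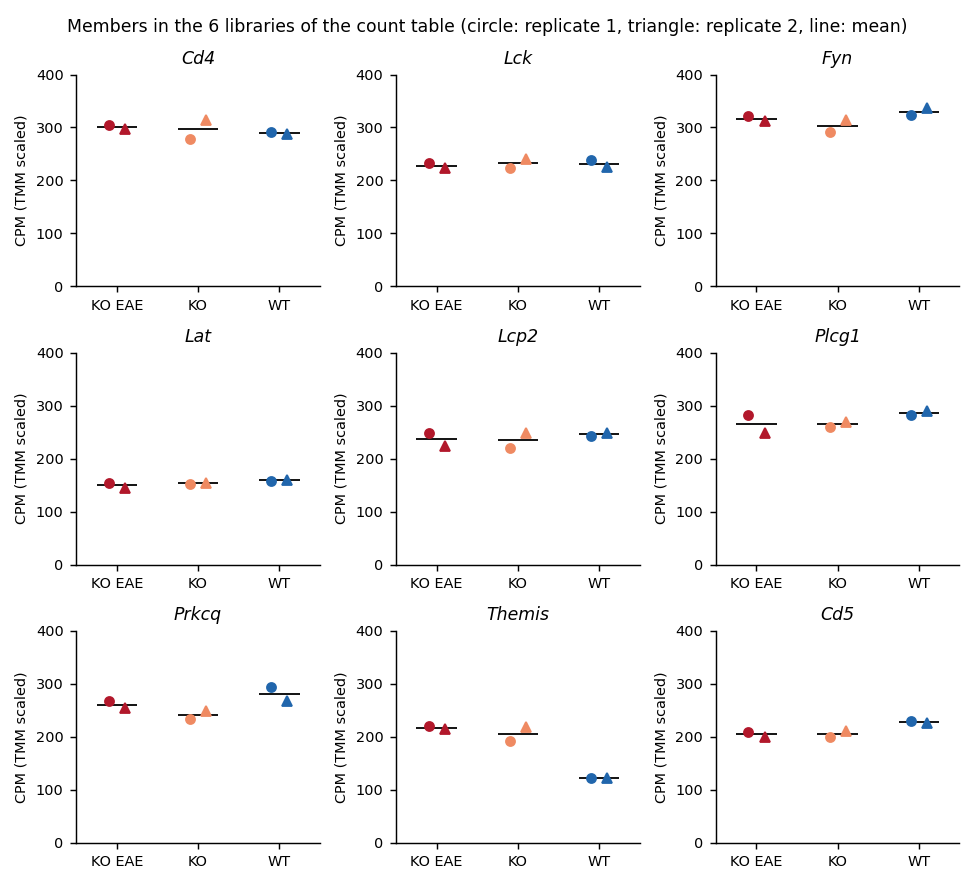
CPM after TMM scaling of the 9 members in the KO EAE, KO and WT libraries of the count table; each panel starts at 0, points are libraries and lines are means. Themis lies at 192 to 220 CPM in the KO and KO EAE libraries and at 122 CPM in both WT libraries, while no other panel holds a called difference.

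The coreceptor and the kinases of the first step showed no call. Cd4 (chromosome 6, 124864692 to 124888221) had 278 and 315 CPM in KO, against 291 and 287 CPM in WT. The WT values fell between the KO values, and the log2 change was 0.04 ± 0.09 (95% interval -0.18 to 0.25; edgeR, adjusted p = 0.824). Mouse dendritic cells of the spleen can also express Cd4. Lck (chromosome 4, 129548344 to 129573641), the kinase that phosphorylates the CD3 chains, had 224 and 241 CPM in KO, against 239 and 225 CPM in WT. Those values interleaved, and the interval of the log2 change ran from -0.19 to 0.19 around 0.00257 (adjusted p = 0.989). Fyn (chromosome 10, 39368855 to 39565381), the related Src family kinase, had 292 and 315 CPM in KO, against 323 and 336 CPM in WT. Both KO libraries were below both WT libraries, by less than the test could call (log2 change -0.12 ± 0.08, 95% interval -0.32 to 0.08; adjusted p = 0.401). Normalized values of Cd4 were 19295 and 19291 in KO, against 18964 and 18224 in WT (log2 change 0.05 ± 0.09; limma, adjusted p = 0.831). Those of Lck were 36872 and 36379 in KO, against 38934 and 39847 in WT (log2 change -0.10 ± 0.08; adjusted p = 0.612), and those of Fyn 19809 and 19002 in KO, against 20196 and 21007 in WT (log2 change -0.09 ± 0.09; adjusted p = 0.704). In that table, unlike in the counts, the Lck groups did not overlap.

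The scaffold and its partners also showed no call. Lat (chromosome 7, 126363824 to 126369570) had 153 and 155 CPM in KO, against 157 and 161 CPM in WT, a log2 change of -0.05 ± 0.07 (95% interval -0.22 to 0.12; edgeR, adjusted p = 0.7). Lcp2 (chromosome 11, 34046920 to 34092295), whose adaptor protein also serves myeloid cells and platelets, had 221 and 249 CPM in KO, against 243 and 249 CPM in WT. Its groups overlapped (log2 change -0.06 ± 0.09, 95% interval -0.29 to 0.16; adjusted p = 0.697). Lcp2 normalized values also overlapped, at 14213 and 12937 in KO against 15410 and 13046 in WT (log2 change -0.06 ± 0.11; limma, adjusted p = 0.846), while Lat was lower in both KO libraries, at 10896 and 12294 in KO against 13479 and 12475 in WT (log2 change -0.16 ± 0.10; adjusted p = 0.529).

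Plcg1 (chromosome 2, 160731300 to 160775760), the lipase that produces the second messengers, had 261 and 270 CPM in KO, against 282 and 290 CPM in WT. The KO libraries were lower without reaching a call (log2 change -0.11 ± 0.09, 95% interval -0.33 to 0.11; adjusted p = 0.479). Its normalized values were 5068 and 5612 in KO, against 5687 and 8249 in WT. WT replicate 2 stood above the other 3 libraries, and the log2 change of -0.36 ± 0.18 (limma, adjusted p = 0.424) was -0.09 without it and -0.63 without WT replicate 1. An exon of Zhx3, on the opposite strand, overlaps Plcg1, and Zhx3 itself had 336 and 332 reads in KO and 404 and 450 in WT. The strand setting of the counting is not given, so reads in that overlap cannot be assigned.

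In read counts Prkcq and Cd5 were the members whose KO values lay lowest relative to WT, again without a call, while by normalized values Plcg1 lay lowest. Prkcq (chromosome 2, 11172108 to 11301222) encodes protein kinase C theta, which passes the diacylglycerol signal on to NF-kappaB. It had 233 and 249 CPM in KO, against 293 and 268 CPM in WT (log2 change -0.22 ± 0.09, 95% interval -0.43 to -0.01; edgeR, adjusted p = 0.163). Its direction differed between tables: the normalized values were 16209 and 17671 in KO, against 16049 and 15978 in WT, a log2 change of 0.08 ± 0.09 (limma, adjusted p = 0.749). Cd5 (chromosome 19, 10717116 to 10739002) encodes a surface receptor that restrains the signal and whose level on thymocytes follows signal strength. It had 199 and 210 CPM in KO, against 230 and 227 CPM in WT (log2 change -0.16 ± 0.07, 95% interval -0.33 to 0.02; edgeR, adjusted p = 0.214). The normalized table gave the same direction for Cd5, with 11314 and 12382 in KO, against 13269 and 14241 in WT (log2 change -0.22 ± 0.10; limma, adjusted p = 0.408). The authors' deposited table lists Cd5 at -0.20 (adjusted p = 0.348), Plcg1 at -0.34 (adjusted p = 0.221) and Prkcq at 0.08 (adjusted p = 0.818).

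Over the 9 members, 3 log2 changes of KO against WT in read counts were above 0 and 6 were below 0, with a median of -0.06, beside a median of -0.00819 over all genes tested. Both KO libraries lay above both WT libraries for Themis and below them for 5 members, Fyn, Lat, Plcg1, Prkcq and Cd5. Among all genes tested, 65.2% had groups without overlap, 32.7% above and 32.5% below. By normalized values 3 members lay above, Themis, Cd4 and Prkcq, and 5 below, Lck, Fyn, Lat, Plcg1 and Cd5, beside 45.8% of all genes without overlap, 23.5% above and 22.3% below. For the 8 members other than Themis, the count table's 95% intervals for KO against WT lay within 0.742-fold and 1.19-fold.

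**Figure D4:**
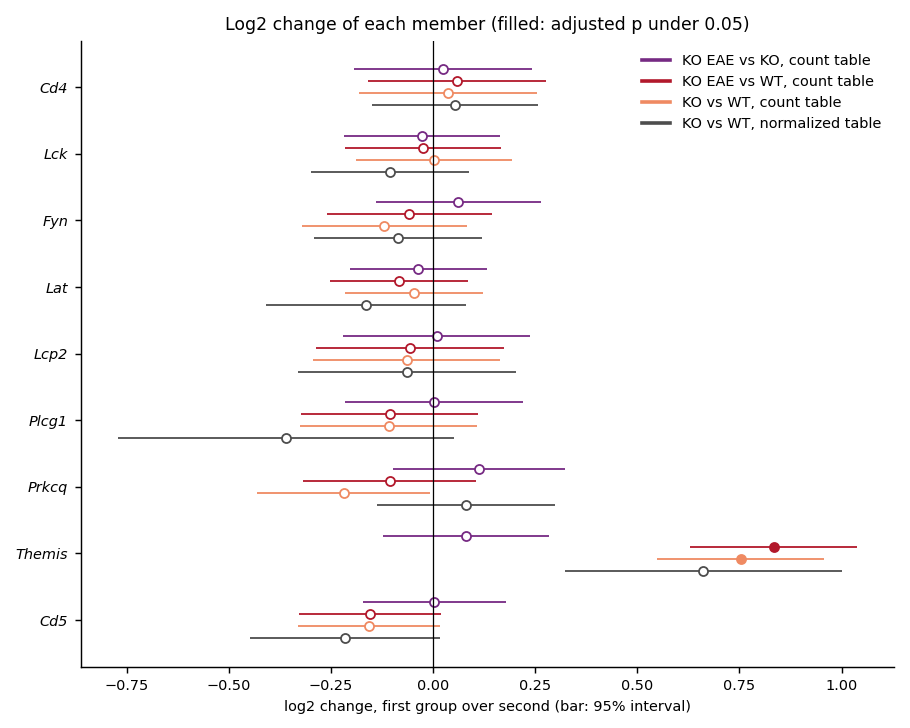
Log2 change of each member in the 4 comparisons, first group over second, with 95% intervals as bars; filled points have an adjusted p under 0.05. Only Themis has filled points, at 0.83 for KO EAE over WT and 0.75 for KO over WT, and the largest uncalled value in the count table is that of Prkcq at -0.22.

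Between KO cells labelled EAE and KO cells at steady state no member was called. Themis had 220 and 214 CPM in KO EAE, against 192 and 218 CPM in KO. One KO EAE library lay between the KO libraries and the other just above them, and the log2 change was 0.08 ± 0.08 (95% interval -0.12 to 0.28; edgeR, adjusted p = 0.74). Prkcq had 267 and 254 CPM in KO EAE, against 233 and 249 CPM in KO, the 1 member whose groups did not overlap, beside 38.3% of all genes without overlap, 17% higher and 21.3% lower (log2 change 0.11 ± 0.09, 95% interval -0.10 to 0.32; adjusted p = 0.665). The other 7 members had log2 changes between -0.04 and 0.06. In KO EAE, Cd4 had 305 and 298 CPM, Lck 232 and 224 CPM, Fyn 321 and 312 CPM, Lat 155 and 145 CPM, Lcp2 248 and 224 CPM, Plcg1 282 and 249 CPM and Cd5 210 and 200 CPM. All 7 overlapped their KO values, and Plcg1 had the widest gap between KO EAE replicates. EdgeR called 0 of 9 members, beside 0.0137% of all genes, and DESeq2 called 0, beside 167 genes in all. In edgeR no member had an unadjusted p under 0.05, beside 1378 of 14548 genes in all. The median log2 change of the members was 0.00842, and that of all genes -0.00272.

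Against WT cells at steady state, KO EAE cells also showed Themis as the 1 member called, where 9.36% of all genes were called, 7.41% higher and 1.95% lower. These libraries differ from WT in genotype and in EAE together, and the WT libraries also serve as those of the KO comparison. Themis had 220 and 214 CPM in KO EAE, against 122 and 122 CPM in WT (1.78-fold; log2 change 0.83 ± 0.08, 95% interval 0.63 to 1.04; edgeR, adjusted p = 0.00226). Relative to the CD3 chains it stood at 39.6% and 39.8% in KO EAE, against 22.1% and 22.4% in WT. Cd5 had 210 and 200 CPM in KO EAE, against 230 and 227 CPM in WT (log2 change -0.15 ± 0.07; adjusted p = 0.231), and Prkcq 267 and 254 CPM in KO EAE, against 293 and 268 CPM in WT (log2 change -0.11 ± 0.09; adjusted p = 0.481). Themis and Cd4 lay above WT in both KO EAE libraries, and 4 members lay below, Fyn, Lat, Prkcq and Cd5, beside 60.6% of all genes without overlap, 29.9% above and 30.7% below. The median over the 20 myeloid markers was 2.62 here, with 14 called higher.

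Per length, the members kept nearly the same order in every library. With CPM divided by the kilobases of merged exons in GENCODE M21, Lck averaged 77.8 ± 2.05 CPM per kb in KO EAE, 79.3 ± 3.99 in KO and 79.2 ± 3.29 in WT (SD, n = 2). Cd4 averaged 74.8 ± 1.28 in KO EAE, 73.6 ± 6.44 in KO and 71.7 ± 0.594 in WT, and Fyn 72.6 ± 1.41, 69.6 ± 3.67 and 75.6 ± 2.08 in the same groups. In KO the replicates of Cd4 overlapped those of Lck and of Fyn, and Lck lay above Fyn. In KO EAE they lay apart in the order Lck, Cd4, Fyn, and in WT Lck and Fyn overlapped while Cd4 lay below both. Lat, at 54.2 ± 2.59, 55.5 ± 0.592 and 57.4 ± 0.890, and Lcp2, at 53.0 ± 3.80, 52.7 ± 4.47 and 55.1 ± 1.06, came next and did not separate from each other in KO EAE or KO. Cd5 followed at 41.6 ± 1.38, 41.6 ± 1.56 and 46.4 ± 0.442, then Prkcq at 36.8 ± 1.35, 34.0 ± 1.66 and 39.6 ± 2.55. Plcg1, with means of 33.8, 33.8 and 36.4 CPM per kb, overlapped Prkcq in KO EAE and KO and lay below it in WT. Themis was the lowest in all 6 libraries, at 18.6 ± 0.356 in KO EAE, 17.6 ± 1.61 in KO and 10.4 ± 0.00367 in WT. That rank depends on the merged exon length, 11682 bases for Themis and 2767 for Lat, which may not be that of the transcript expressed. Without the division Themis averaged 217 CPM in KO EAE, 205 in KO and 122 in WT, against 150, 154 and 159 for Lat. Per kb, Fyn was highest in WT replicate 2 of the counts, at 77.1 against 76.9 for Lck, and Lck in the other libraries. The normalized table placed Lck highest and Themis lowest in its 4 libraries. Lck stood further from the next member there, with a mean of 12504 against 4785 for Cd4 in KO and 13448 against 4722 for Fyn in WT. There the values per kb were 12589 and 12420 for Lck in KO and 13292 and 13604 in WT, against 266 and 260 for Themis in KO and 150 and 185 in WT.

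Beyond the 9 members, 68 further genes of the receptor pathway were listed by role, and 67 of them were tested in the counts. In KO against WT, 2 rose, 2 fell and 63 were not called, beside 9.41% and 3.46% of all genes. The list's median log2 change was -0.08, beside -0.00819 over all genes, and DESeq2 called 6. None of the 9 receptor chain and coreceptor genes, 7 kinases or 16 downstream relays was called by edgeR, where 1, 1 and 6 of them had an unadjusted p under 0.05, beside 4128 of 14548 genes in all. Of the 16 relays, which include Rasgrp1, Itpkb, Orai1 and Stim1, 15 had log2 changes below 0 (median -0.14), and Stim1 was above 0, at 0.12. By normalized values 14 of 16 were below 0 (median -0.18), while 51.3% and 49.2% of all genes were below 0 in the 2 tables. The list was chosen with earlier results of these data known, and it was not tested as a set.

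The 2 that rose were Themis2 and Dusp22. Themis2, the relative of Themis that is expressed in B cells and macrophages, had 79.2 and 62.4 CPM in KO, against 6.26 and 5.27 CPM in WT (log2 change 3.62 ± 0.38; edgeR, adjusted p = 0.00194). In KO EAE it had 42.0 and 85.9 CPM (log2 change 3.47 ± 0.38 against WT; adjusted p = 0.00299). KO and KO EAE libraries all stood far above WT, and the KO EAE replicates lay furthest apart. The 20 myeloid markers, with their median of 2.87 in KO against WT, moved the same way, and their part in the Themis2 difference was not tested. The authors' deposited table, which goes with the normalized values and not the counts, lists Themis2 at 0.84 (adjusted p = 0.00806) and Dusp22 at 0.29 (adjusted p = 0.632). How the authors estimated these log2 fold changes is not given. They were smaller than the limma changes of the same normalized values, 1.67 for Themis2 and 0.64 for Dusp22. Dusp22, a phosphatase that can act on Lck, had 19.3 and 20.1 CPM in KO, against 7.07 and 5.94 CPM in WT (log2 change 1.60 ± 0.20; adjusted p = 0.00431). Normalized values of Themis2 were 453 and 340 in KO, against 141 and 107 in WT (log2 change 1.67 ± 0.35; limma, adjusted p = 0.155), and those of Dusp22 were 256 and 200 in KO, against 157 and 135 in WT (log2 change 0.64 ± 0.36; adjusted p = 0.481).

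The 2 that fell were Cbl and Sh2d2a. Cbl encodes a ubiquitin ligase that targets activated receptor complexes, and it had 173 and 194 CPM in KO, against 254 and 256 CPM in WT (log2 change -0.47 ± 0.10; edgeR, adjusted p = 0.0284). Sh2d2a encodes the T cell specific adaptor that binds Lck, and it had 204 and 219 CPM in KO, against 275 and 273 CPM in WT (log2 change -0.37 ± 0.09; adjusted p = 0.0436). Both calls ended whichever of the 4 libraries was omitted (adjusted p = 0.0717 to 0.194 for Cbl and 0.103 to 0.246 for Sh2d2a). By normalized values Cbl overlapped between groups, with a log2 change of 0.03 ± 0.13 (limma, adjusted p = 0.95), and Sh2d2a was at -0.28 ± 0.11 (adjusted p = 0.366). The authors' deposited table lists Cbl at 0.02 (adjusted p = 0.976), Sh2d2a at -0.26 (adjusted p = 0.259) and Dok2 at -0.19 (adjusted p = 0.536).

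In KO EAE against WT the list again had 2 genes higher, Themis2 and Dusp22, and 2 lower, Sh2d2a and Dok2, of 67 tested, beside 7.41% and 1.95% of all genes. Dok2 is an adaptor that restrains receptor signals. Dok2 had 98.1 and 94.2 CPM in KO EAE, against 116 and 122 CPM in WT (log2 change -0.31 ± 0.07; edgeR, adjusted p = 0.0458), and Dusp22 had 12.9 and 15.6 CPM in KO EAE, against 7.07 and 5.94 CPM in WT (log2 change 1.13 ± 0.20; adjusted p = 0.021). Without either WT replicate the calls of Dusp22, Sh2d2a and Dok2 ended (adjusted p = 0.0906 to 0.312), as did those of Sh2d2a and Dok2 without KO EAE replicate 2 (both adjusted p = 0.129). Between KO EAE and KO, edgeR called none of the 67 genes, beside 0.0137% of all genes, and DESeq2 called 0, beside 167 genes in all. In edgeR 2 of the 67 had an unadjusted p under 0.05, beside 1378 of 14548 in all. By normalized values in KO against WT, limma called none of 66, beside 0.00819% of all genes, and edgeR on recovered reads called 0. In limma 8 of the 66 had an unadjusted p under 0.05, beside 1585 of 12208 in all.

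**Figure D5:**
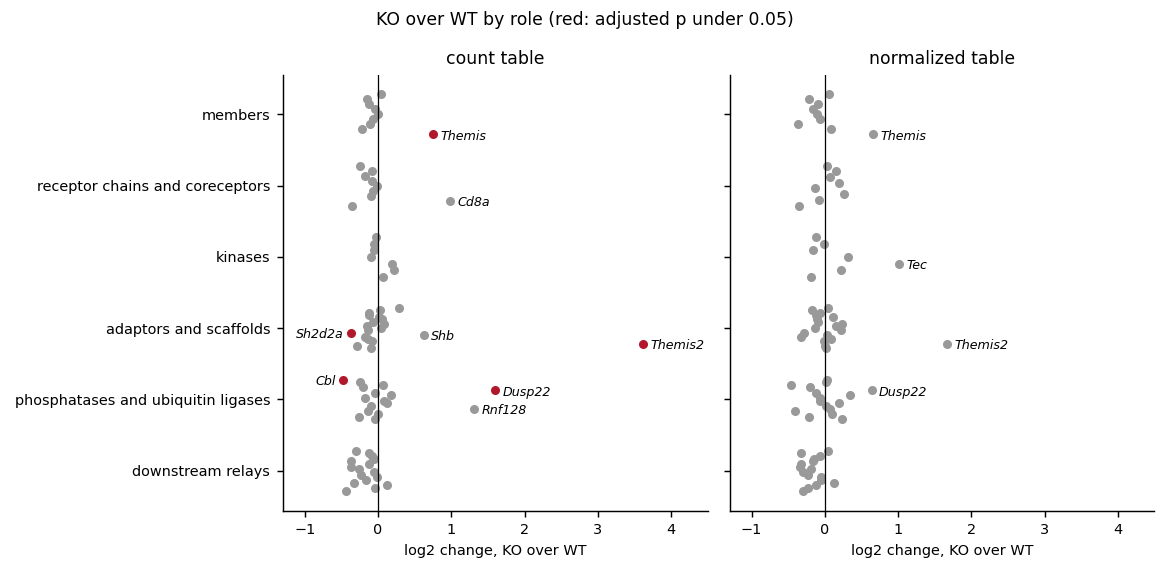
Log2 change of KO over WT for the members and for the other pathway genes by role, in the count table (left) and the normalized table (right); red points have an adjusted p under 0.05, and called genes and those with the largest rises are named. Themis2 at 3.62 and Dusp22 at 1.60 stand apart on the left, and no point is called on the right.

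The genes whose pattern over the 6 libraries of the count table was most like that of Themis were Mfsd6, Pxylp1 and Mccc2, by the root mean square difference of centred log2 CPM among 10095 genes averaging at least 10 CPM. Those differences were 0.0560, 0.0594 and 0.0610. Mfsd6 had 109 and 96.5 CPM in KO EAE, 92.2 and 97.4 CPM in KO and 56.1 and 58.7 CPM in WT. The measure ranks likeness of levels in these libraries only.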

How the data were processed

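Libraries had been made from sorted mouse regulatory T cells with an NEBNext kit and run on a NextSeq500, per the labels' protocols. HISAT2, HTSeq and DESeq2 and the build mm10 are named in the submitters' processing notes; the sources used here give no versions, annotation or strand setting. The authors deposited read counts per gene for 6 libraries; a table of normalized signal for the KO and WT libraries, whose values are counts divided by 1 factor per library; and their comparison of KO with WT, holding mean signal, log2 fold changes with standard errors, a test score, and p-values, per the file headers. Of 24449 and 23420 rows, 25 and 27 name no gene and were left out (at most 0.217% and 0.284% of a library). Of the normalized values above 0, 100% were whole multiples of 1 read (tolerance 0.02 reads), so reads were recovered for an alternative test with edgeR, which called 12 genes.

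For counts, edgeR 4.0.16 under R 4.3.3 was used (filterByExpr with minimum count 10 and minimum total 15, TMM, glmQLFit, glmQLFTest), fitted on all 6 libraries with 1 coefficient per group. The normalized table was tested with limma 3.58.1 on log2(value + 1), for genes with a value of at least 10 in at least 2 libraries. Adjusted p-values are Benjamini-Hochberg over all genes tested, with a threshold of 0.05. The SE after an edgeR change is its size divided by the square root of F, and the 95% intervals follow from it. CPM are after TMM scaling. A limit of 3 reads was 0.177 to 0.205 CPM, for counting error alone. Replicates differed by more than sampling noise (chi-square per degree of freedom 18.8 to 36.5). Scripts were tested on simulated data.

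The members, the pathway and marker lists and the tests were chosen with earlier results of these data known. Named genes are all members, Bcl11b, Foxp3, and the called pathway genes without overlap of groups with the largest changes (up to 8 for KO against WT, up to 4 for each other comparison). Foxp3 averaged 156 ± 9.76 CPM in KO EAE, 160 ± 6.62 in KO and 208 ± 3.10 in WT (SD, n = 2), and fell in KO against WT (edgeR, adjusted p = 0.0254), a call that ended with any 1 library left out (adjusted p = 0.106 to 0.185) and was absent from the normalized values (limma, adjusted p = 0.852). Of 68 pathway symbols, Carmil2 matched neither table. Alternatives were DESeq2 1.42.0, other scalings, filters and pseudocounts, a replicate block, fits of 2 groups only, and leaving out each library.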

Additional observations from a re-analysis of the deposited data

How the results depend on the processing

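The Themis call stood in KO against WT (log2 change 0.66 to 0.85) and in KO EAE against WT (0.81 to 0.86) in every fit of the counts that was run, and the count of members called stayed at 1 in both. It stayed at 0 between KO EAE and KO. By normalized values it was 0 to 1 with 1 library left out. Counts of all genes called moved more. In KO against WT the main count was 1873, with 3121 from the 2 groups alone, 1668 with the replicate block and 846 to 917 with a library left out. Between KO EAE and KO it was 2, with 167 by DESeq2, 0 with the replicate block, 0 from the 2 groups alone and 0 to 313 with a library left out. In KO EAE against WT it was 1362, with 2213 by DESeq2, 782 from the 2 groups alone, 1301 with the replicate block and 603 to 3762 with a library left out, the highest without KO EAE replicate 1. By normalized values it was 1, with 45 at a pseudocount of 10, 12 by edgeR on recovered reads, 51 with the replicate block and 1 to 552 with a library left out, the highest without WT replicate 2. Pathway genes called in KO against WT numbered 4, with 2 under the replicate block, 9 from the 2 groups alone and 2 to 3 with a library left out. For KO EAE against WT they numbered 4, with 2 without a filter on low counts, 2 under the replicate block, 1 from the 2 groups alone and 1 to 15 with a library left out. The block ended the calls of Cbl and Sh2d2a in KO against WT (adjusted p = 0.0534 and 0.0781) and of Sh2d2a and Dok2 in KO EAE against WT (0.0787 and 0.0841), and changed no member's call. By normalized values Bcl11b was called with the block (0.0393). The labels do not say whether same-numbered libraries were paired. Correlations of same-numbered deviations were 0.0124 for KO with WT, -0.0861 for KO EAE with WT, 0.197 for KO EAE with KO and 0.0301 by normalized values. With 2 libraries a group these values cannot settle it. Without a filter on low counts the Sh2d2a calls also ended (adjusted p = 0.0886 for KO and 0.0685 for KO EAE, each against WT), as did that of Dok2 (0.0895) and of Foxp3 in KO against WT (0.0681). Fitting only the KO EAE and WT groups ended the calls of Dusp22 (0.0763), Sh2d2a (0.0744) and Dok2 (0.0885), and scaling by library sizes alone ended that of Dok2 (0.0699). Log2 changes that turned direction were all uncalled. With library sizes as the only scaling, Lat was 0.01306 in KO against WT, Lck was 0.002111 in KO EAE against WT, and in KO EAE against KO the values were -0.008571 for Cd4, -0.02403 for Lcp2, -0.03142 for Plcg1 and -0.03063 for Cd5. Without the filter those 4 were -0.00178, -0.01599, -0.02206 and -0.02268, and by DESeq2 -0.001155, -0.01561, -0.02164 and -0.022. With a library left out, the ranges that crossed 0 in KO against WT were -0.0555 to 0.1271 for Cd4, -0.04898 to 0.06019 for Lck and -0.1532 to 0.0236 for Lcp2, and by normalized values -0.1845 to 0.0558 for Lcp2, -0.1557 to 0.006207 for Foxp3 and -0.05526 to 0.1102 for Cbl. For KO EAE against WT they were -0.06106 to 0.03645 for Lck and -0.14 to 0.01787 for Lcp2. Between KO EAE and KO they were -0.07364 to 0.1215 for Cd4, -0.08817 to 0.03061 for Lck, -0.00131 to 0.1226 for Fyn, -0.08104 to 0.01139 for Lat, -0.08565 to 0.1033 for Lcp2, -0.0859 to 0.08964 for Plcg1, -0.02019 to 0.1832 for Themis, -0.04537 to 0.04715 for Cd5, -0.7545 to 0.2798 for Themis2, -0.09953 to 0.0642 for Sh2d2a, -0.4096 to 0.125 for Bcl11b and -0.09452 to 0.02826 for Foxp3. The cause was not tested. With 2 libraries a group, precision was limited: the widest 95% interval among members in KO against WT counts, that of Lcp2, ran from -0.29 to 0.16 on the log2 scale.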

Other observations

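The tables weighted the members unequally. Dividing each library's CPM from recovered reads of the normalized table by its CPM from the count table, both without TMM scaling, gave 7.32 to 8.55 for Lck across the 4 KO and WT libraries. For Cd4 the ratio was 2.97 to 3.18, for Fyn 2.92 to 3.11 and for Cd5 2.60 to 3.03. It was 0.891 to 1.37 for Plcg1 and 0.674 to 0.857 for Themis. Levels of the members were therefore compared between libraries only within a table.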
